A study of Mus musculus with 2 samples.

Results

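The regions described here are narrow Tdg peaks with a high score. They are the autosomal peaks of the Bio-Tdg library that are at most 700 bp wide and have a score of at least 500 and below 3050. The rule took 258 peaks of the 72970 in the list, or 1.02% of the 25291 narrow autosomal peaks (those of at most 700 bp). No narrow autosomal peak had a score of 3050 or more (0 of 25291), so the other 25033 narrow peaks all scored below 500. The members were chosen by measured width and score, which are given only as a description. Positions are in the mouse build mm9.

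Tdg, thymine DNA glycosylase, removes the oxidised cytosines 5-formylcytosine and 5-carboxylcytosine from DNA, and base excision repair then restores an unmodified cytosine. In embryonic stem cells it works after the Tet enzymes, which oxidise methylcytosine. A peak of a ChIP-seq library is a stretch of genome where fragments bound to the pulled-down protein pile up. Its width follows the spread of the fragments. Its score rises with their number and, for a given number, falls with width. A narrow peak with a high score is therefore a place with many reads for its width.

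The cells were E14, a mouse embryonic stem cell line. The group used here is labelled Bio-Tdg cells (n = 1 library), which carry a biotin-tagged Tdg. The other group of the series is labelled BirA cells, mock (n = 1 library), after the ligase that adds the biotin. No peak list of the mock was analysed here, so no background can be set beside these peaks. With 1 library there is no replicate error, and no test was made. Intervals are exact Clopper-Pearson 95% intervals over peaks. They cover counting error only and take peaks as independent, which neighbouring peaks are not. Promoter, level of the tagged protein and number of clones are not stated in the labels. Expression was not measured, so the cell type was not checked against markers.

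The score is the peak caller's value per peak. Together with the width it gives back the number of reads in the peak, which was recovered for all 258 members. The median member held 40 reads (quartiles 38 and 42, range 33 to 154). The median of the other narrow peaks was 24 reads, and their range was 21 to 37. The read density of the members ran from 54.3 to 261 reads per kb, with a median of 60.2, and that of the other narrow peaks had a median of 42.2. Both differences follow from the rule, since a peak of 700 bp needs 38 reads, or 54.3 reads per kb, to reach a score of 500. Among all 70884 peaks with recovered reads, the median member stood at the percentile 73.4 of read density and the lowest member at 62.4. The members are therefore dense for their width but not the densest of the list as a set. As a set, their scores are high only among narrow peaks. Over all autosomal peaks of any width the median score was 555, against 546 for the members. The median number of reads was 42 in the 70152 autosomal peaks with recovered reads, against 40 for the members. In the same score range as the members lay 37255 autosomal peaks. Of the other narrow peaks, 243 were at least as dense as the least dense member, with at most 37 reads each.

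Most members lay close to both limits of the rule. Their median width was 671.5 bp, 175 of them were 650 to 700 bp wide, 29 were under 600 bp and 7 were under 500 bp. Their median score was 546, with 145 below 550 and 205 below 600, while 29 reached 650 and 6 reached 1000. The members just inside the score limit had scores of 500.78, 501.39, 501.89, 502.14 and 502.64, and the narrow peaks just outside it had 499.79, 499.41, 498.92 and 498.67. With 1 read less, 60 of the 258 members would have scored below 500, and with 5 reads less 63 would have remained. On the width side, the 6 members of 700 bp had scores of 506 to 575, and the 6 peaks of 701 bp in the same score range had 506 to 628. Extending the width to 750 bp would have added 437 peaks. The lower edge of the set is therefore within the counting error of single peaks. Scores rise from this edge without a clear break, and the 6 members that reached 1000 lie far above it, as the plot of score against width shows.

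**Figure D1:**
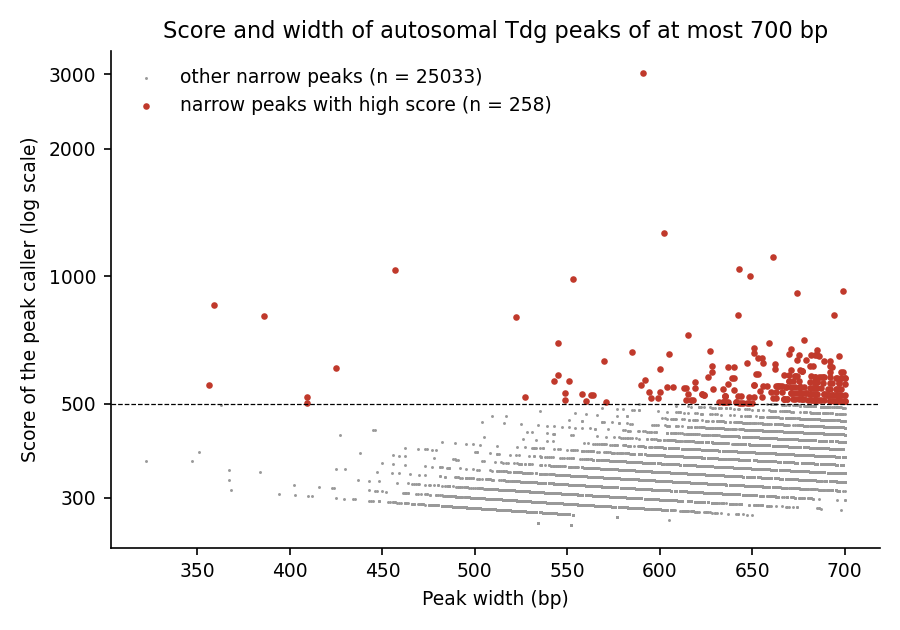
Score (log scale) against width in bp for autosomal Tdg peaks of at most 700 bp, with 258 high-score peaks in red, 25033 other narrow peaks in grey and the limit of 500 as a dashed line. Grey points fall on descending lines, each a whole number of reads, and 6 red points reach a score of 1000.

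The members with the highest scores are described next, here and at the start of chromosome 9 further on. Whether their sequence is repeated in the genome or has a peak in the mock was not tested, so their reads per kb need not measure Tdg binding. The highest score belonged to a pair of members side by side on chromosome 10. The first, chr10:41773829-41774419, was 591 bp wide with a score of 3012 and held 154 reads (exact 95% Poisson interval 131 to 180). Its 261 reads per kb were the highest density of all 70884 peaks with recovered reads, but 2086 peaks at higher scores have no recovered reads. The second, chr10:41774834-41775192, lay 414 bp further on and was the second narrowest member, at 359 bp with 50 reads (37.1 to 65.9) or 139 reads per kb. The gap between them was shorter than the wider of both peaks. The megabase around them held 61 peaks, close to the median of 60 for other narrow peaks.

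On chromosome 2, chr2:98504887-98505488 was 602 bp wide, with a score of 1264, 76 reads (59.9 to 95.1) and 126 reads per kb. It was part of a group of 4 peaks that were the only ones in their megabase. Its nearest neighbour, chr2:98503673-98504384, missed the width limit at 712 bp and held 159 reads or 223 per kb. The outer peaks of the group, of 1034 and 1572 bp, both had the score of 3100, too high for reads to be recovered. This member was therefore the narrowest peak of a dense and otherwise solitary group.

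On chromosome 13, chr13:66811751-66812393 had a score of 1042, 66 reads (51.0 to 84.0) and 103 reads per kb over 643 bp. A second member, chr13:66816587-66817245, lay 4193 bp further on with 48 reads and 72.8 reads per kb. Only 4 peaks lay in their megabase. On chromosome 6, chr6:103598922-103599378 was the opposite of a grouped peak. It was 457 bp wide with a score of 1035, 61 reads (46.7 to 78.4) and 133 reads per kb, and its nearest peak was 136 kb away. Only the chromosome 10 pair exceeded it in reads per kb among the members.

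The other members with the 10 highest scores lay on chromosomes 2, 9, 13 and 14. Near the end of chromosome 2, chr2:181651941-181652589 held 64 reads over 649 bp, 98.6 per kb, and its nearest peak was 12.4 kb away. On chromosome 14, chr14:79851291-79851964 held 60 reads over 674 bp, 89.0 per kb. On chromosome 13, chr13:3371986-3372684 held 61 reads over 699 bp, 87.3 per kb, and lay 336 kb from the first peak of the chromosome. More than 100 reads per kb were found in 8 members and in none of the 25033 other narrow peaks (0). The second part of that statement is close to fixed by the rule, since so dense a peak scores below 500 only if it is very narrow. In the whole list 118 peaks with recovered reads passed 100 per kb.

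The narrowest members lay on chromosomes 1, 9, 10 and 18. The narrowest of all, chr18:68851606-68851961, was 356 bp wide with 35 reads and had its nearest peak 61.1 kb away. Next in width after the chromosome 10 peak, chr9:3030000-3030385, was 386 bp wide with 48 reads. Another on chromosome 18, chr18:61018013-61018421, and chr1:172994528-172994936 were both 409 bp wide, with 34 and 33 reads. The first of these lay 95 bp from a peak of 732 bp, the second 5480 bp from one of 566 bp. Within the set, Spearman's rho between score and width was -0.05 (n = 258), and between reads per kb and width -0.55. Both are shaped by the limits of the rule.

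The first position compared was the low-coordinate end of the chromosomes. Mouse chromosomes have their centromere at this end, and the satellite arrays of the centromere are mostly missing from the assembled sequence. The windows start at the first peak and not at the chromosome end. First peaks began between position 2999867 on chromosome 9 and position 6093484 on chromosome 14. The chromosome 14 window of 1 Mb held 1 peak, which was not narrow. Members lay within 1 Mb of the first peak of their chromosome in 8 of 258 cases, 3.10% (1.35 to 6.02), against 210 of 25033 other narrow peaks, 0.839% (0.730 to 0.960). Seen from the other side, 8 of 218 narrow peaks within 1 Mb of a first peak were members, 3.67% (1.60 to 7.10), against 0.997% (0.878 to 1.13) of those farther away. The result rests on chromosome 9, which held 4 of the 8. Without that chromosome, a setting chosen after seeing the data, the share was 1.65% (0.450 to 4.16) against 0.864% (0.750 to 0.990), and the intervals overlapped. They also overlapped when members and other narrow peaks were both limited to 650 to 700 bp, with 2.29% (0.626 to 5.75) against 0.667% (0.436 to 0.976). At the other end, within 1 Mb of the last peak, lay 4 of 258 members, 1.55% (0.424 to 3.92), and 0.867% (0.756 to 0.990) of the other narrow peaks.

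The 8 members near a first peak were spread over 5 chromosomes. On chromosome 12 the member chr12:3109737-3110387 was itself the first peak, with 46 reads over 651 bp and 70.7 reads per kb, and the next peak lay 124 kb away. On chromosome 6, chr6:3151164-3151685 lay 18.9 kb from the first peak, with 51 reads over 522 bp and 97.7 reads per kb. Its nearest peak, at 16.6 kb, was the first peak of the chromosome, with a score of 3100. The member on chromosome 13 was the peak of 699 bp described above, and the one on chromosome 11, chr11:3901511-3902162, held 42 reads, 878 kb from the first peak. The remaining 14 autosomes had no member in this window, although chromosomes 7 and 19 had 32 and 30 other narrow peaks there.

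The start of chromosome 9 held a group of 18 peaks in 38.6 kb, chr9:2999867-3038416, followed by 161 kb without a peak. As for the leading members above, repeated sequence and the mock were not tested here, and the values near first peaks and for the longest run rest on this group. Of its 9 peaks of at most 700 bp, 4 were members. In order along the chromosome, chr9:3004351-3004977 held 46 reads over 627 bp, 73.4 per kb. The next, chr9:3030000-3030385, held 48 reads and 124 per kb. It was followed by chr9:3032208-3032868 with 70 reads (54.6 to 88.4) over 661 bp, 106 per kb, and chr9:3037864-3038416 with 61 reads over 553 bp, 110 per kb. The last 3 followed each other with gaps of 1822 and 4995 bp, the second only just under 5 kb. With gaps under 5 kb they formed the longest run of members in the list. The other peaks of this group were dense as well. Its 17 peaks with recovered reads ran from 45.6 to 126 reads per kb with a median of 91.4, against a median of 49.5 over all autosomal peaks. The densest was a peak of 1359 bp, chr9:3035560-3036918, between the last members. Another narrow peak of the group, chr9:3002810-3003172, missed the score limit with 496 at 88.2 reads per kb, the highest density among the other narrow peaks.

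**Figure D2:**
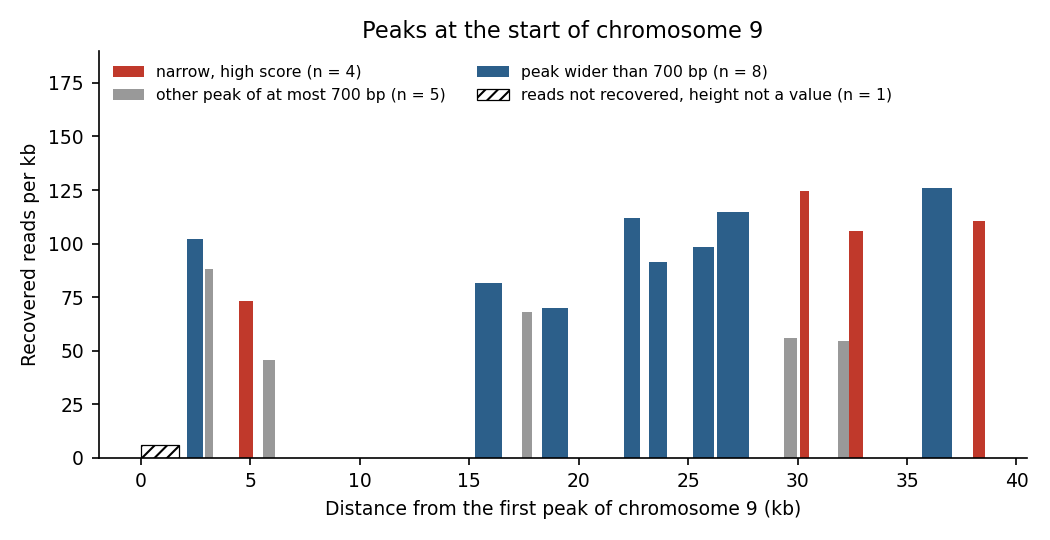
Recovered reads per kb of the 18 peaks at the start of chromosome 9, against the distance in kb from the first peak; each bar spans its peak. The 4 high-score narrow peaks (red) reach 73.4 to 124 reads per kb, and wider peaks (blue) among them reach 126.

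Of the 8 members near a first peak, 7 were among the 26 members with the highest scores, 654 to 3012, and 1 was among the remaining 232. The number of 26 was set after seeing the data, score was part of the rule, and 4 of the 7 belong to the single group on chromosome 9, so this is a description of where those 8 peaks rank. The megabases of the 26 held a median of 31.5 peaks, against 51 for the 232, and members of the same group count the same megabase again. Over all 258 members, Spearman's rho between score and peaks in the megabase was only -0.10. The remaining 232 members had 59.05% in the far part of the chromosome and 59.9% with a peak within 5 kb, close to the values of all other narrow peaks given below.

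Along the whole chromosome, the intervals of members and other narrow peaks overlapped. The far part of the chromosome, beyond the midpoint between first and last peak, held 152 of 258 members, 58.9% (52.6 to 65.0), and 59.2% (58.6 to 59.8) of the other narrow peaks. When each chromosome was cut into 10 equal parts, the share of members ran from 5.04% in part 3 to 14.3% in part 10. In the other narrow peaks it ran from 6.99% in part 1 to 15.5% in part 10. Part 1 was where the sets were farthest apart, with 27 members or 10.5% (7.01 to 14.9) against 6.99% (6.68 to 7.32), and the intervals overlapped in all 10 parts.

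**Figure D3:**
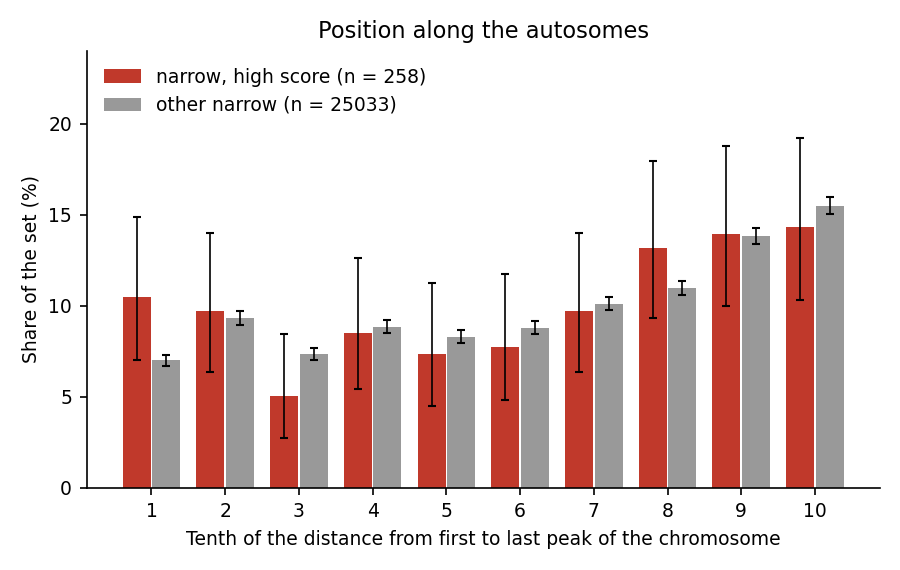
Share in percent of 258 high-score narrow peaks (red) and 25033 other narrow peaks (grey) in each of 10 equal parts of the distance from first to last peak of the chromosome, with exact 95% intervals. Both sets rise towards part 10, and part 1 holds 10.5% of the red and 6.99% of the grey set.

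Spacing was measured as the gap from edge to edge to the nearest other peak of any kind. The median gap was 2770.5 bp for members (exact 95% interval of the median 2057 to 4044) and 2752 bp (2671 to 2841) for other narrow peaks. A peak within 5 kb was present for 157 of 258 members, 60.9% (54.6 to 66.8), against 62.6% (62.0 to 63.2). No peak within 50 kb was found for 15 members, 5.81% (3.29 to 9.41), against 5.54% (5.26 to 5.84). At short gaps the share of members was the higher, and the intervals of both sets overlapped. A peak less than 500 bp away was present for 67 members, 25.97% (20.7 to 31.8), against 21.4% (20.9 to 21.9). A peak less than 100 bp away was present for 24 members, 9.30% (6.05 to 13.5), and for 5.99% (5.70 to 6.29) of the other narrow peaks. In the range of 650 to 700 bp the values were 25.7% (19.4 to 32.9) and 19.8% (18.6 to 21.1) for 500 bp, and 9.14% (5.32 to 14.4) and 5.80% (5.09 to 6.58) for 100 bp. A single peak split by the caller and a pair of peaks cannot be told apart from this list.

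**Figure D4:**
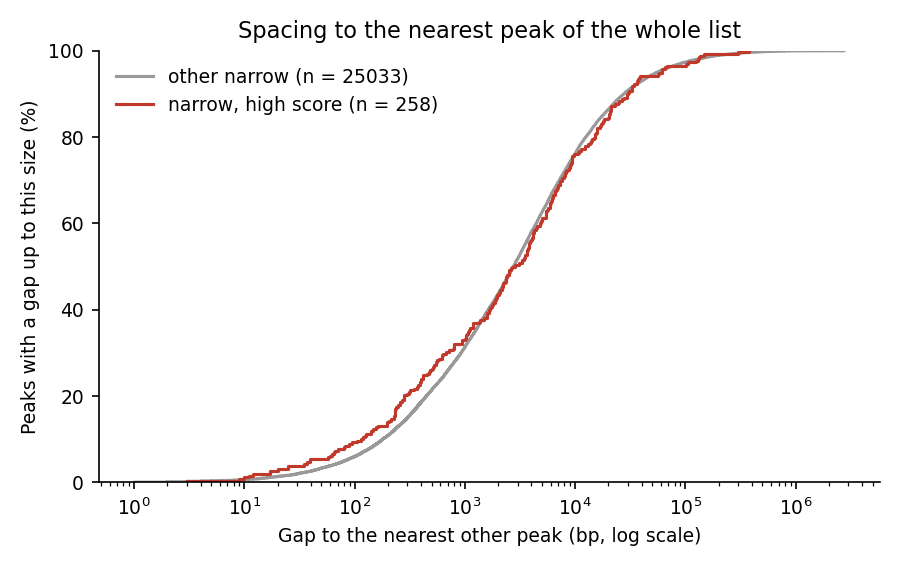
Cumulative share in percent of 258 high-score narrow peaks (red) and 25033 other narrow peaks (grey) against the gap in bp to the nearest other peak (log scale). The curves run together, with medians of 2770.5 and 2752 bp, and the red curve lies above the grey below 1 kb.

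The neighbours of members and of other narrow peaks were compared by width, score and density. The nearest peak was wider than 700 bp for 64.7% (58.6 to 70.6) of members and 65.1% (64.5 to 65.7) of the others. Its median score was 663 (530 to 782) for members and 556 (548 to 563) for the others, and its median density 51.9 (49.3 to 55.9) and 49.5 (49.2 to 49.7) reads per kb. The densities cover only the 252 members and 24285 others whose nearest peak had recovered reads, so neighbours with the highest scores are left out. A neighbour with a score of 3050 or more was found for 6 members, 2.33% (0.858 to 4.99), against 2.99% (2.78 to 3.21).

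The most isolated members were of ordinary density, apart from the chromosome 6 peak of 457 bp. The farthest from any other peak was chr3:147626497-147627196, which was alone in its megabase with 42 reads over 700 bp and had its nearest peak 379 kb away. On chromosome 4, chr4:16393882-16394515 held 37 reads over 634 bp, 302 kb from its nearest peak. On chromosome 12, chr12:119231780-119232441 held 44 reads over 662 bp, with a gap of 149 kb. On chromosome 1, chr1:161319887-161320567 held 41 reads over 681 bp, with a gap of 134 kb. The densities of these peaks, in the same order, were 60.0, 58.4, 66.5 and 60.2 reads per kb. The quartiles of all members were 57.5 and 64.6, so the chromosome 12 peak lay above the upper quartile.

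Some members lay beside each other. Another member was present within 5 kb of 9 of 258 members, 3.49% (1.61 to 6.52), and a member was present within 5 kb of 88 of 25033 other narrow peaks, 0.352% (0.282 to 0.433). These 9 members formed only 4 runs, 3 of 2 members and 1 of 3, so they are not 9 independent cases. Within 2 kb, 6 of 258 members had another member, 2.33% (0.858 to 4.99), against 0.196% (0.145 to 0.259) of the other narrow peaks. Apart from the runs on chromosomes 9, 10 and 13 already described, the other run was chr6:24605726-24606391 and chr6:24607407-24608080. Those peaks held 39 reads each at 58.6 and 57.9 reads per kb, with a gap of 1015 bp. Without chromosome 9 the share was 2.47% (0.911 to 5.30) against 0.343% (0.272 to 0.426). Among the 175 members of 650 to 700 bp, 4 had another member of any width within 5 kb, 2.29% (0.626 to 5.75) against 0.257% (0.123 to 0.471) of the other narrow peaks of these widths. When the neighbouring members were limited to 650 to 700 bp as well, 2 of 175 remained, 1.14% (0.139 to 4.07) against 0.128% (0.0417 to 0.299), and the intervals overlapped. Over wider distances most members were single. Of 225 megabases with a member, 195 held 1, 28 held 2, 1 held 3 and 1, at the start of chromosome 9, held 4.

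All 19 autosomes carried members, from 4 on chromosome 19 to 23 on chromosome 2. Chromosomes 4, 11 and 10 followed with 21, 20 and 19. Chromosome 11, which has the most peaks of any kind for its length, held 7.75% (4.80 to 11.7) of the members and 8.53% (8.19 to 8.88) of the other narrow peaks. As a share of the narrow peaks of their own chromosome, members were most frequent on chromosome 13, with 15 of 929 or 1.61% (0.906 to 2.65). Chromosomes 14 and 12 had 1.496% (0.799 to 2.54) and 1.45% (0.813 to 2.38). They were least frequent on chromosome 19, with 4 of 848 or 0.472% (0.129 to 1.20), and on chromosome 17, with 7 of 1168 or 0.599% (0.241 to 1.23). The intervals of the highest and the lowest chromosome overlapped, so single chromosomes cannot be ranked at these numbers.

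The share was also set against how crowded the chromosome was. In the 6 autosomes with the fewest peaks per Mb (14, 3, 1, 13, 18 and 12) 84 of 6223 narrow peaks were members, 1.35% (1.08 to 1.67). In the 6 with the most (2, 5, 4, 17, 19 and 11) the number was 88 of 9998, 0.880% (0.707 to 1.08), and the intervals overlapped slightly. Across the 19 autosomes, Spearman's rho between peaks per Mb and the share was -0.66 and Pearson's r -0.58. The points share 1 library, and the correlation is given without a test. Per length, rho was 0.01 between peaks per Mb and members per Mb, and the mean was 0.107 members per Mb. Megabases were grouped in the same way. Among narrow peaks in megabases with at most 10 peaks 1.38% (0.835 to 2.15) were members, and in megabases with more than 100 peaks 0.843% (0.628 to 1.11). The median member lay in a megabase with 50 peaks (43 to 60), the median other narrow peak in one with 60 (59 to 61). These groupings were chosen after seeing the data.

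**Figure D5:**
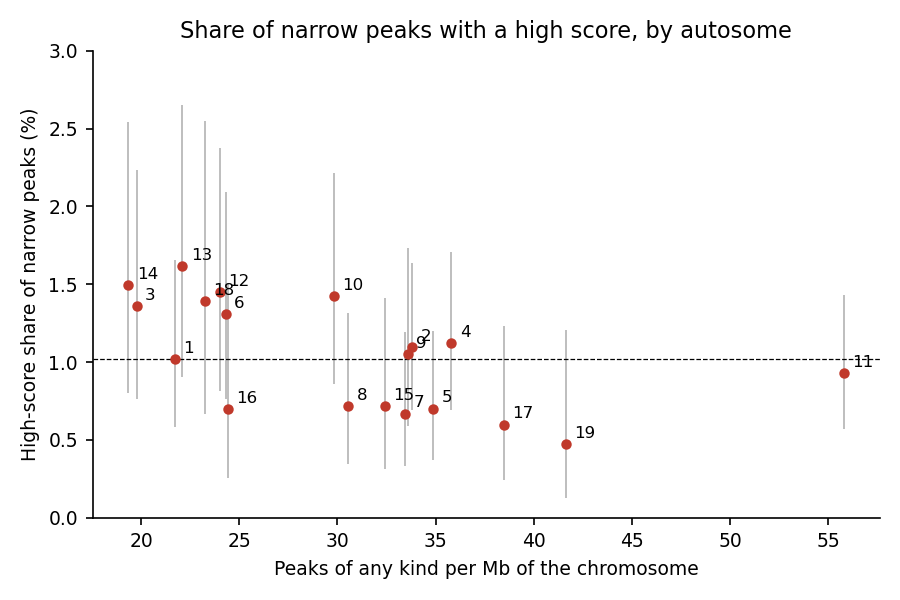
Share in percent of the narrow peaks of each autosome that have a high score, against peaks of any kind per Mb; points carry the chromosome number, grey lines are exact 95% intervals and the dashed line is the share over all autosomes, 1.02%. Chromosomes 13 (1.61%) and 14 (1.496%) lie high among those with few peaks, and chromosomes 17 and 19 lie low, with wide intervals.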

How the data were processed

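The analysis used the list of Tdg peaks deposited for the Bio-Tdg library. The build mm9 and the tools MACS 1.4.1, Bowtie 0.12.7 and CASAVA 1.8 are listed in the submitters' processing notes, without role or order. Calling threshold, control library and filters on reads were not stated there. The score is the authors' deposited value per peak, which in the output of MACS 1.4 is −10 times the log10 of the p-value. It served only to describe and filter peaks within the list.

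The read number of each peak was computed back from its score and width with a single fitted Poisson rate of 1.13 reads per kb and a width of at least 370 bp. All 70884 peaks below a score of 3050 lay within 0.01 score units of a whole number of reads. Their scores were thus reproduced with the same rate at every position, without a local or mock background. The read numbers are 1 higher if the caller counted at least that number. Tested on simulated data, the step returned 100% of the read numbers of 8116 peaks, and the gap computation 100% of the gaps of 186 peaks. The simulated scores were made with the same formula that the step inverts. Their recovery checks the code and not how the deposited scores arose. The labels name no molecular identifiers, so reads need not be independent molecules.

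Gaps run from edge to edge and positions count from 1. The length of a chromosome runs from its first to its last peak. With 1 library per group no test was made. Named peaks are the 10 members with the highest scores, the 5 narrowest, the 5 densest, the 5 nearest a first peak, the 5 most isolated and the longest run. Members, rule and measures were chosen with earlier results of these data known. Other peaks were named after their values were seen. They are those at the limits of the rule, the neighbours described, the chromosome 11 member near the first peak and the chromosome 6 run. Sequence, genes and repeats at these positions need mm9 and were not analysed here. Computations ran in Python 3.11.15 (scipy 1.17.1, numpy 2.4.6, pandas 2.3.3) and plots in matplotlib 3.10.9.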

Additional observations from a re-analysis of the deposited data

How the results depend on the processing

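The limits of the rule set the number of members: 53 with a score minimum of 600, 688 with 450, 84 at a width of at most 650 bp and 695 at 750 bp. Median reads per kb followed, with 70.0, 55.1, 64.2 and 57.3 in the same order, and 59.2 for 650 to 700 bp only. The share within 1 Mb of a first peak rose to 13.2% at a score of at least 600, where 7 of 53 remained. Its interval lay apart from that of the other narrow peaks in 6 of 9 settings. The exceptions were a width of at most 750 bp, 650 to 700 bp only, and no chromosome 9. The share with another member within 5 kb was 13.2% with a score minimum of 600 and 1.14% for 650 to 700 bp only, where neighbouring members were limited to these widths too, and lay apart in 7 of 8 settings. The share with any peak within 5 kb was 67.9% with that higher score limit. It was 47.9% after merging peaks less than 1 kb apart and 43.4% within 2 kb, which follow from the settings, and it overlapped the other narrow peaks in all 9. The shares on chromosome 11 and in the far part kept within the main interval in the 6 settings run for each. Leaving out chromosome 9, and all settings for reads per kb, were chosen after seeing the data. No paired analysis was possible because the series has a single library of each kind. A peak missing from the list does not show missing binding, and the depth of the library is not known.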

Other observations

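Outside the autosomes, 1 of 336 narrow peaks on chromosome X met the same score range, 0.298% (exact 95% interval 0.00753 to 1.65), an interval that holds the autosomal share of 1.02%. This peak, chrX:139917414-139917833, was 420 bp wide with a score of 729, 45 reads and 107 reads per kb, so it was denser than all but 6 of the autosomal members. Its nearest peak lay 35.0 kb away. On chromosome Y 0 of 8 narrow peaks met the range.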
